A study of Mus musculus with 9 samples.

Results

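Livers labelled as lacking NEMO in hepatocytes and p21 in every cell were compared with wild type livers. The comparison takes the 3 arrays titled as the NEMO and p21 knockout and the 3 titled as wild type, which are 6 of the 9 arrays of the study, and it covers all 23410 probe sets with a gene annotation among the 28939 tested. Every array held total RNA of whole liver from a male C57/BL6 mouse on standard chow, aged 8 to 9 weeks. The knockout mice came from a cross between mice lacking NEMO in hepatocytes (NEMOΔhepa) and mice lacking p21 constitutively, so that hepatocytes lack both genes and all other cells lack p21 alone. The promoter that drives the deletion in hepatocytes is not given in the sources used here. Another group of 3 arrays, from NEMOΔhepa mice that keep p21, is set beside the comparison where it helps, and no group lacking p21 alone was analysed here. The labels give the animals separate identifiers and say nothing of litters or batches. An effect of litter or batch that follows the groups could therefore not be told apart. The p-values set each group difference against the spread between arrays within groups.

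The Ikbkg gene encodes NEMO, a scaffold of the kinases that phosphorylate IκB, which frees the NF-κB transcription factors after signals such as TNF. Hepatocytes without it are known to be sensitive to TNF-induced death, and mice that lack it in the liver develop chronic hepatitis with fibrosis, compensatory proliferation and tumours. The p21 protein, encoded by Cdkn1a, is induced by p53 and holds back division by inhibiting cyclin-dependent kinases and by supporting the repression of cell cycle genes through pocket protein complexes.

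The values are deposited log2 expression values, so a difference of 1 is a doubling of signal. Array medians lay between 6.47 and 6.48 in wild type and between 6.53 and 6.55 in the labelled double knockout. Arrays correlated at 0.994 to 0.996 within the 3 groups and at 0.986 to 0.989 between wild type and the labelled double knockout, over probe sets, which are not independent replicates. Genes listed for hepatocytes, most of them of secreted proteins, were near the top of the scale in both groups. The mean level of the 17 measured ran from 12.93 to 12.99 in wild type and from 12.84 to 12.88 in the labelled double knockout. Of the 17, 3 were lower at a limma adjusted p under 0.05 and none was higher, where 4.19% of all genes were lower. These were Amt (-0.70 ± 0.13), Fetub (-0.33 ± 0.083) and Apoh (-0.25 ± 0.067). The count was 1 without any 1 of the 3 wild type arrays, among other fits. Albumin, Alb, differed by 0.053 ± 0.058. In whole liver, more cells of a type and more RNA per cell cannot be told apart.

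The targeted genes were read first. Ikbkg read 8.73, 8.89 and 8.98 on the wild type arrays and 8.10, 8.26 and 8.45 on those of the labelled double knockout (log2). All knockout arrays lay below all wild type arrays, with a difference of -0.60 ± 0.11 (standard error; limma adjusted p = 0.00835), in a tissue that keeps NEMO outside hepatocytes. The only probe set annotated to Cdkn1a, jointly with the transcript 4930567H12Rik, went the other way. It read 8.54, 9.64 and 7.83 in wild type and 11.14, 10.14 and 11.06 in the mice labelled as lacking p21, 2.11 ± 0.45 higher (limma adjusted p = 0.0194). The Cdkn1a call was lost without wild type array 1 or 3 or labelled double knockout array 1 or 3 (highest limma adjusted p = 0.0764). The position of its probes relative to the deletion is not known here, the signal is therefore no test of p21 protein, and the group is called the labelled double knockout throughout.

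Loss of NEMO and, by the label, p21 went with higher expression of cell division genes, macrophage genes and metallothioneins, and with lower expression of male-type steroid, fatty acid and bile acid enzymes. Of the 28939 probe sets, 2696 (9.32%) were called at a limma adjusted p under 0.05, 1680 (5.81%) higher and 1016 (3.51%) lower in the labelled double knockout. At least 2-fold were 429 of the higher and 49 of the lower calls, and at least 4-fold 76 and 4. The unadjusted p was under 0.05 for 6068 probe sets, against 1447 by chance. Higher calls made up 62.3%, and 44.1% of 2970 when each array was centred on its median, a step that moved the median over all probe sets from -0.029 to -0.093. Without labelled double knockout replicate 3 there were 1601 calls.

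The largest increase was that of Gpnmb, a glycoprotein of lipid-laden and scar-associated macrophages. It read 5.08, 5.53 and 5.33 in wild type and 9.24, 9.56 and 9.02 in the labelled double knockout, a 15.6-fold difference (3.96 ± 0.15, limma adjusted p = 1.09e-05). The transcript D17H6S56E-5 followed at 3.81 ± 0.37, then Mybl1, a MYB family transcription factor (3.71 ± 0.33), and Mmp12, the macrophage elastase (3.67 ± 0.28). The metallothionein Mt2, which binds zinc and copper, rose from 9.45, 9.78 and 9.61 to 12.96, 12.99 and 12.88 (3.33 ± 0.20, limma adjusted p = 8.46e-05). Akr1c18, which inactivates progesterone, stood at 3.04 ± 0.45, and Sprr1a, a protein of the cornified envelope, at 2.82 ± 0.53. Vcam1, the adhesion molecule that holds leukocytes, rose by 2.80 ± 0.23. The other 7 of the 15 largest increases, Ccna2, Ccnb2, Bub1, Rrm2, Ect2, Mki67 and Plk1, are genes of DNA synthesis and mitosis.

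Hsd3b5, a steroid dehydrogenase made by male liver, had the largest decrease. It read 11.92, 11.79 and 11.94 in wild type and 7.54, 7.88 and 5.95 in the labelled double knockout, 27.1-fold lower (-4.76 ± 0.51, limma adjusted p = 0.000655). Adgrf1, an adhesion G protein-coupled receptor, fell from 9.58, 8.59 and 9.30 to 5.20, 6.12 and 5.49 (-3.55 ± 0.27, limma adjusted p = 0.000153). Elovl3, an elongase of long-chain fatty acids, stood at -2.58 ± 0.39, and Mup21, a major urinary protein, at -1.85 ± 0.31. The oxysterol hydroxylase Cyp7b1 (-1.83 ± 0.33), the complement regulator Susd4 (-1.79 ± 0.17) and the organic anion carrier Slco1a1 (-1.71 ± 0.17) are known as male-biased as well. Lower by between -1.58 and -1.29 were the centriole gene Tedc2, the B cell chemokine Cxcl13, the cytochrome Cyp2c37, the dicarboxylate carrier Slc13a2, the succinate receptor Sucnr1, the sulfotransferase Sult2a8 and Cyp8b1, the sterol hydroxylase that makes cholic acid. The Cyp8b1 call was lost without any 1 of the 3 wild type arrays, NEMO knockout array 2 or 3 or labelled double knockout array 1 or 3 (highest limma adjusted p = 0.123). Mup21 and Cyp2c37 belong to families of near-identical sequence, so their signal can be shared.

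**Figure D1:**
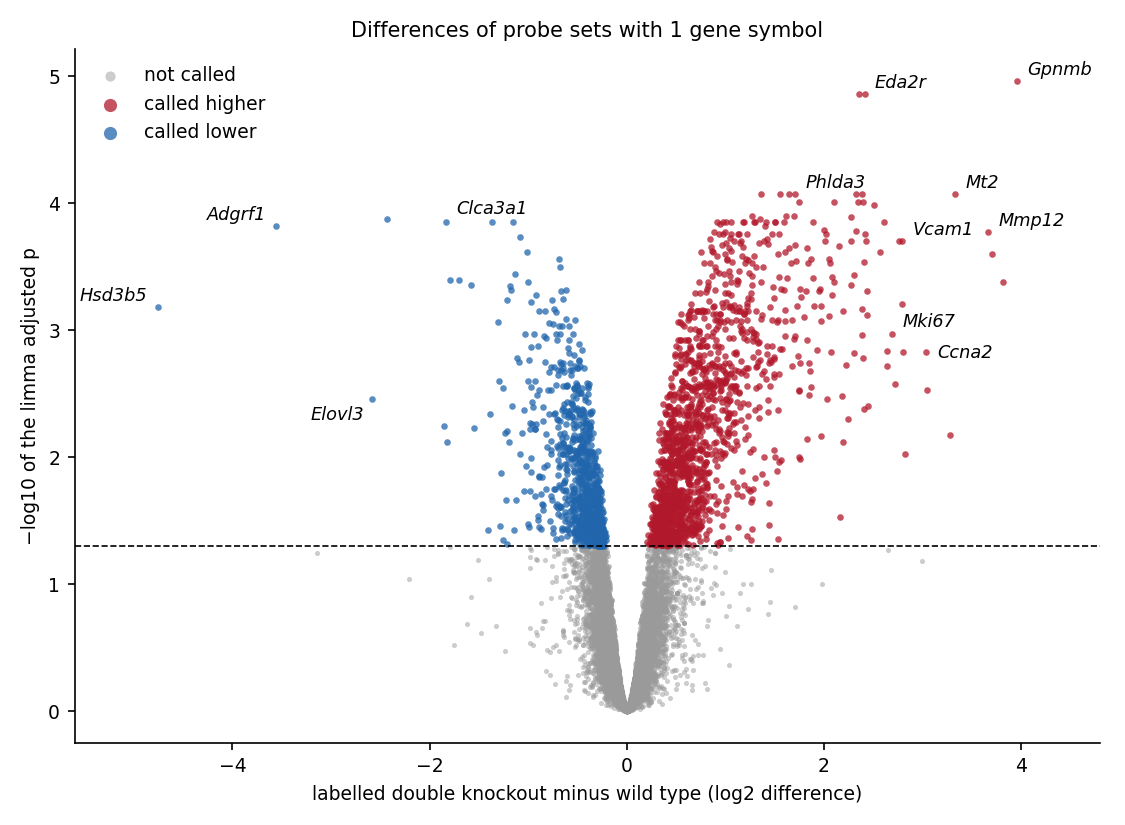
Each point is a probe set with 1 gene symbol, placed by the difference between the labelled double knockout and wild type (log2, x axis) and by the −log10 of its limma adjusted p (y axis); the dashed line marks an adjusted p of 0.05. Gpnmb (3.96) lies farthest to the right among the labelled genes and Hsd3b5 (-4.76) farthest to the left, and the right arm holds more called points with large differences.

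Genes of mitosis are known to share promoter elements: CCAAT boxes, bound by NF-Y, and cell cycle homology regions, through which pocket protein complexes hold the genes silent in resting cells. Genes of DNA replication often carry sites for E2F factors. Because these genes moved together here, the promoters of the 2 with the largest increases among the called genes that the sequence table holds are shown for each of 4 lists, mitotic kinases and cyclins, spindle and kinetochore, chromosome condensation and cytokinesis, and DNA replication. Each is the 150 bases before the start site on the gene's strand, 5′ to 3′, from RefSeq on GRCm38.p6, with capitals marking CCAAT boxes, the cell cycle homology letters TTTGAA and E2F sites on either strand. The E2F sites searched were TTTGGCGC and the variants with TTTCCCGC, with TTTGCCGC and with TTTCGCGC as their letters.
Ccnb2: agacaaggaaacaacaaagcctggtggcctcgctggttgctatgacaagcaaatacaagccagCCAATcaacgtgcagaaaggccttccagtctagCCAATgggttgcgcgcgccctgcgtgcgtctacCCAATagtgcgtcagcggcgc
Bub1: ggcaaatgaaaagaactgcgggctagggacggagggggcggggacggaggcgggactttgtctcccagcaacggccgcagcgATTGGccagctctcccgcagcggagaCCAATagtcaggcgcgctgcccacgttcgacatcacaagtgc
Ckap2: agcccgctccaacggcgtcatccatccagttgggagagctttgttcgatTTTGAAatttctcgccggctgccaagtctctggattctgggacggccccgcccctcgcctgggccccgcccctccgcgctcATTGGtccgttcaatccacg
Kif11: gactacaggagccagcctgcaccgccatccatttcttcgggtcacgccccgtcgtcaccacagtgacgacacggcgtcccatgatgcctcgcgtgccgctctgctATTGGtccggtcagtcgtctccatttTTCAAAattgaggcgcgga
Ect2: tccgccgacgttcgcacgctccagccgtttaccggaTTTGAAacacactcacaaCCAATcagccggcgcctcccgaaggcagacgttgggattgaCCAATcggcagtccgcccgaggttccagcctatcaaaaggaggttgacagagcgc
Mki67: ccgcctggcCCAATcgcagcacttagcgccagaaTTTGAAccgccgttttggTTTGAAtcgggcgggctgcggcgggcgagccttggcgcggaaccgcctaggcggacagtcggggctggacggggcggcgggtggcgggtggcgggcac
Mcm6: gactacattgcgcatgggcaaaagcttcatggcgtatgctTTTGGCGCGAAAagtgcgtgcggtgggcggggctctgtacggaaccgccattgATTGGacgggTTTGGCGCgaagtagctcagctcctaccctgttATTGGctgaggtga
Dtl: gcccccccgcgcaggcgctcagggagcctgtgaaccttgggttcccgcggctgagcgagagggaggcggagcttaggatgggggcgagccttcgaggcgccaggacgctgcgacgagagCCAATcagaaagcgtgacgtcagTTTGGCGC
The stretches are Ccnb2 at chr9:70421555-70421704 (minus strand), Bub1 at chr2:127831860-127832009 (minus strand), Ckap2 at chr8:22185820-22185969 (minus strand), Kif11 at chr19:37376232-37376381 (plus strand), Ect2 at chr3:27153879-27154028 (minus strand), Mki67 at chr7:135716380-135716529 (minus strand), Mcm6 at chr1:128359706-128359855 (minus strand) and Dtl at chr1:191575545-191575694 (minus strand).

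Over the 250 bases before the start, CCAAT stood on either strand in 37 of the 54 mitosis genes called higher that the sequence table holds (68.5%), against 34.5% of all 27025 promoters. The cell cycle homology letters TTTGAA stood in 20 of the 54 (37.0%), against 16.3% of all promoters. Among the replication genes called higher, 13 of 18 had a sequence, and 5 of the 13 (38.5%) held an E2F site, against 1.91% of all promoters, and 10 (76.9%) held CCAAT. Some E2F letters overlap each other, as in the capitals of Mcm6. Matches of letters are a description and not evidence of binding.

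Genes that drive and carry out mitosis were higher almost throughout. Of the mitotic kinases and cyclins, 16 of 17 measured genes rose and none fell (median difference 1.56), where 6.81% of all genes measured were called higher, 4.19% were called lower and the median gene stood at -0.030. Ccna2, cyclin A2, which starts mitosis with its kinase, read 7.39, 5.91 and 5.68 in wild type and 9.33, 9.45 and 9.32 in the labelled double knockout (3.04 ± 0.39, limma adjusted p = 0.00148). Wild type replicate 1 was the highest of its group for Ccna2, Ccnb2, Bub1 and Plk1, and also for Kif11, Ect2, Mki67 and Mcm6 below. For Ccna2 it was still below every labelled double knockout array, which the rule for naming the largest increases required. Bub1, a kinase of the spindle checkpoint, read 5.44, 4.34 and 4.30 and 7.25, 7.53 and 7.66 (2.79 ± 0.30, limma adjusted p = 0.000623). Cyclin B2, Ccnb2, rose by 2.80 ± 0.36 and the mitotic kinase Plk1 by 2.64 ± 0.36.

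In the spindle and kinetochore list 31 of 32 genes rose and none fell (median 1.39). Kif11, the motor that pushes spindle poles apart, read 6.29, 5.70 and 5.62 in wild type and 8.14, 8.32 and 8.36 in the labelled double knockout (2.40 ± 0.22, limma adjusted p = 0.00029). Ckap2, a spindle protein that p53 also controls, rose by 2.44 ± 0.27, the checkpoint protein Mad2l1 by 2.31 ± 0.22 and the hyaluronan receptor and spindle protein Hmmr by 2.30 ± 0.30. For chromosome condensation and cytokinesis 18 of 20 rose and none fell (median 1.57), led by Ect2, which acts in cytokinesis (2.72 ± 0.39). Mki67, the antigen used to count dividing cells, read 7.26, 6.03 and 5.81 and 8.93, 9.10 and 9.14 (2.69 ± 0.32, limma adjusted p = 0.00106). The contractile ring protein Anln rose by 2.42 ± 0.20 and the ubiquitin ligase partner Ube2c by 2.10 ± 0.21. A filter on dim probe sets removed many of these genes before the test, and the 3 counts were then 9, 15 and 11.

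DNA synthesis genes were higher as well, with 18 of 28 replication genes called higher and none lower (median 0.57). Mcm6, part of the ring-shaped helicase that opens DNA, read 6.72, 5.76 and 5.87 in wild type and 7.41, 8.14 and 8.05 in the labelled double knockout (1.75 ± 0.26, limma adjusted p = 0.00293). Its group mates also rose: Mcm5, of the same ring, by 1.18 ± 0.18, the polymerase subunit Pole by 1.33 ± 0.18, and Dtl, which directs destruction of licensing factors, by 1.23 ± 0.19. The count of falls was 1 without wild type array 2 as well as with median centring, quantile normalization, the filter on dim probe sets or array weights. Of 8 genes that supply nucleotides 3 rose, both subunits of ribonucleotide reductase (Rrm2 by 2.76 ± 0.23 and Rrm1 by 1.10 ± 0.14) and the thymidylate synthase Tyms (0.44 ± 0.085).

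Some regulators of the first phase of the cycle rose, where 6.81% of all genes were called higher and 4.19% lower. Of 20 cyclins, kinases and pocket proteins of that phase 6 rose and 1 fell (median 0.15), and the call of the fall, of the repressive factor E2f4 (-0.30 ± 0.075), was lost without any 1 of the 6 arrays of both groups (highest limma adjusted p = 0.11). Cyclin D1, Ccnd1, read 9.99, 8.998 and 9.39 in wild type and 10.66, 11.08 and 10.94 in the labelled double knockout (1.43 ± 0.22, limma adjusted p = 0.00357). The pocket protein Rbl1 rose by 1.34 ± 0.17, cyclin E2, Ccne2, by 1.06 ± 0.10 and the activator E2f1 by 0.88 ± 0.13. The other D cyclins did not pass, with Ccnd2 at -0.091 ± 0.081 and Ccnd3 at -0.087 ± 0.083. Among 7 inhibitors of cyclin-dependent kinases other than p21, 2 rose: Cdkn3, a phosphatase that peaks in mitosis (1.60 ± 0.17), and Cdkn2c, also called p18 (1.26 ± 0.13). Cdkn1b was at 0.19 ± 0.085 and Cdkn2a at -0.066 ± 0.10, neither called.

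Targets of p53, the factor that induces p21 after DNA damage, were called higher in 14 of 30 cases and lower in none (median 0.59). Eda2r, a death receptor of the TNF receptor family, read 5.07, 4.89 and 4.91 in wild type and 7.18, 7.57 and 7.35 in the labelled double knockout, 5.32-fold higher (2.41 ± 0.10, limma adjusted p = 1.38e-05). Btg2, an antiproliferative protein, rose by 1.76 ± 0.33 and Psrc1, which stabilises spindle microtubules, by 1.87 ± 0.17. Ckap2 and Psrc1 act in mitosis, so the list is not free of division genes. In the DNA damage and repair list 17 of 31 rose and none fell (median 0.43), and the count was 3 with the filter on dim probe sets, and 11 without labelled double knockout array 3. The ubiquitin ligase Rad18 rose by 1.15 ± 0.096, the glycosylase Neil3 by 1.05 ± 0.16, Uhrf1, which copies DNA methylation, by 1.02 ± 0.12 and the checkpoint kinase Chek2 by 0.997 ± 0.10. The damage-sensing kinases Atm (-0.18 ± 0.13) and Atr (0.24 ± 0.15) were not called.

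**Figure D2:**
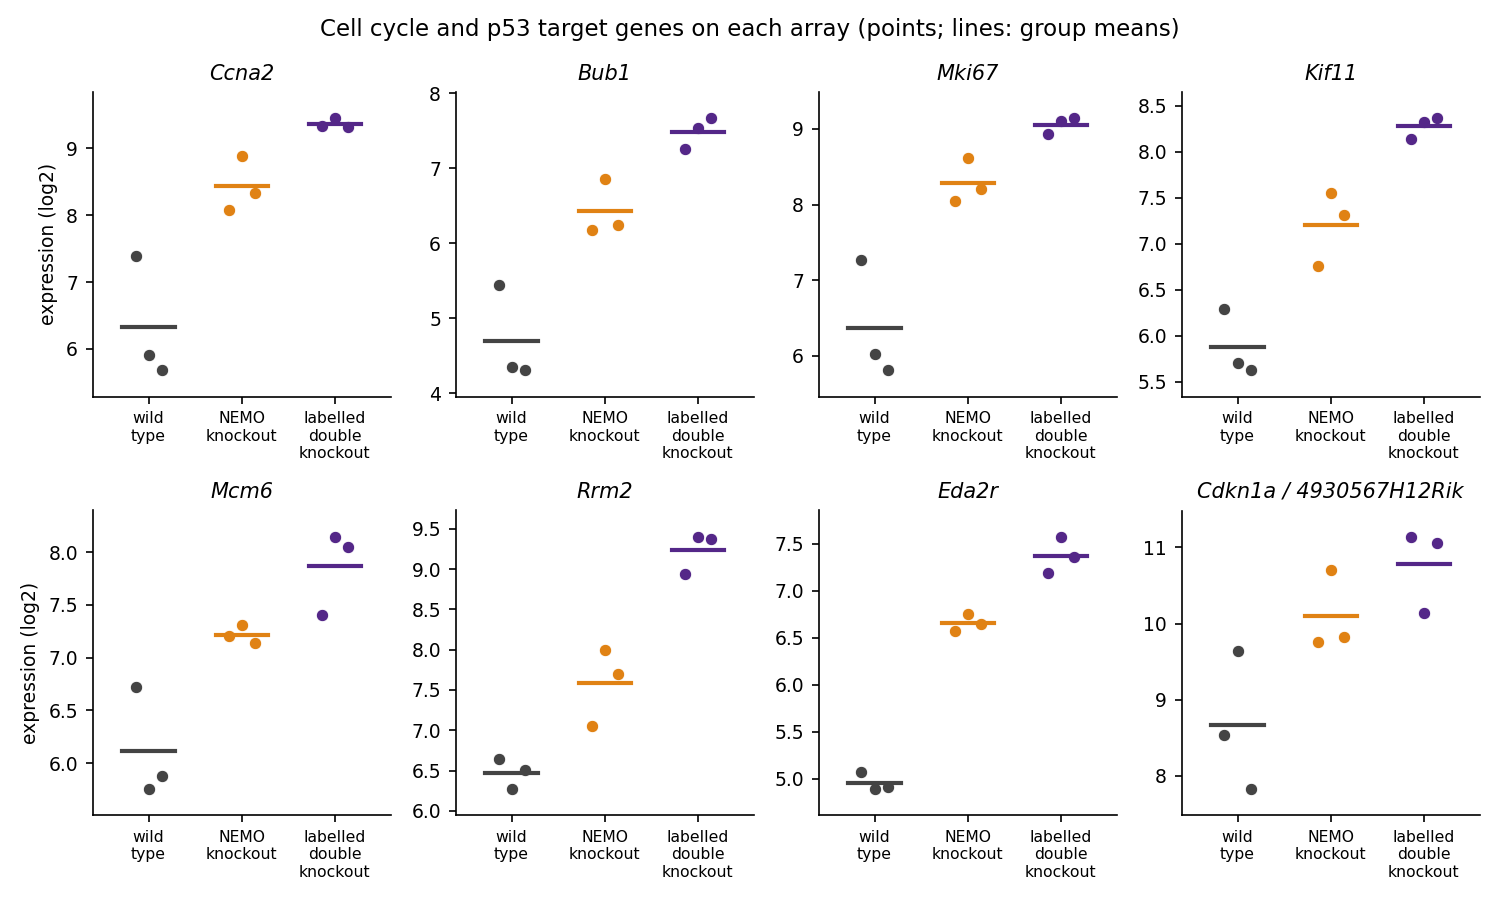
Expression (log2, y axes) of 8 genes on each array, with a point per array and a line at the group mean; each panel has its own axis. For Ccna2, Bub1, Mki67, Kif11, Mcm6, Rrm2 and Eda2r all 3 arrays of the labelled double knockout lie above all 3 of wild type, and the NEMO knockout lies between them; the Cdkn1a probe set is also high in the mice labelled as lacking p21.

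Scar matrix genes were the second large group. Of 18 collagens 10 rose and none fell (median 0.44), and the count of falls was 1 with median centring or array weights. Col1a1, a chain of the main scar collagen, read 7.77, 7.65 and 7.57 in wild type and 9.38, 9.25 and 9.31 in the labelled double knockout (1.65 ± 0.097, limma adjusted p = 8.46e-05), and its partner Col1a2 (1.55 ± 0.094), Col3a1 (1.39 ± 0.11) and Col6a3 (1.31 ± 0.14) rose with it. Proteins that link and organise the matrix had 18 of 25 higher and none lower (median 0.69): the proteoglycan Lum by 2.51 ± 0.16, Thbs1, which activates latent TGF-β, by 1.85 ± 0.28, tenascin C, Tnc, by 1.50 ± 0.21 and periostin, Postn, by 1.29 ± 0.094. Matrix-cutting enzymes and their inhibitors had 11 of 18 higher (median 0.72), with the collagenase Mmp13 at 2.39 ± 0.29, the gelatinase Mmp2 at 1.70 ± 0.21 and the inhibitor Timp1 at 1.23 ± 0.21. The other gelatinase, Mmp9, was called lower (-0.53 ± 0.14). The Mmp9 call was lost without wild type array 1 or 3, NEMO knockout array 2 or any 1 of the 3 labelled double knockout arrays (highest limma adjusted p = 0.136).

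Markers of hepatic stellate cells, which store vitamin A and make scar matrix when activated, moved both ways. Over all genes the shares called were 6.81% higher and 4.19% lower. Of 19, 5 rose and 2 fell (median 0.36), and their mean level ran from 7.95 to 8.19 in wild type and from 8.31 to 8.46 in the labelled double knockout. The receptors Pdgfra (1.34 ± 0.19) and Pdgfrb (1.06 ± 0.14) and cytoglobin, Cygb (1.16 ± 0.096), rose. Colec11, a collectin, read 9.45, 9.65 and 9.76 and 8.82, 8.63 and 8.59 (-0.94 ± 0.11, limma adjusted p = 0.00106) and fell, and so did Hhip (-0.92 ± 0.15), which binds Hedgehog ligands. The contractile markers of myofibroblasts, Acta2 (0.71 ± 0.25, limma adjusted p = 0.128) and Tagln (0.79 ± 0.24), were not called. The part of stellate cell number in the matrix result was not tested.

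Many macrophage genes rose, and no lymphocyte marker was called with all arrays. Of 20 markers of monocytes and scar macrophages 14 rose and 1 fell (median 0.82), and their mean level ran from 6.96 to 7.18 in wild type and from 8.003 to 8.34 in the labelled double knockout. Besides Gpnmb and Mmp12, the fungal sugar receptor Clec7a read 6.04, 5.82 and 6.05 and 8.15, 8.58 and 8.16 (2.32 ± 0.13, limma adjusted p = 8.46e-05), and the membrane protein Ms4a7 rose by 1.72 ± 0.16. The monocyte receptor Ccr2 rose by 1.10 ± 0.15 and Itgam was at 0.41 ± 0.11, not called. The call of the fall, of the fatty acid binding protein Fabp5 (-1.21 ± 0.32), was lost without wild type array 1 or 2, NEMO knockout array 3 or labelled double knockout array 1 or 3. Kupffer cells, the resident macrophages of liver, had 8 of 14 markers higher and 1 lower (median 0.73). Cd68 rose by 1.31 ± 0.12, the complement subunit C1qc by 1.03 ± 0.097 and the macrophage marker Adgre1 by 0.93 ± 0.13. Cd163, the scavenger of haemoglobin, fell from 7.16, 7.63 and 7.14 to 6.33, 6.005 and 6.37 (-1.08 ± 0.20, limma adjusted p = 0.0094). The markers most particular to resident cells, Clec4f (0.22 ± 0.091) and Timd4 (-0.17 ± 0.15), were not called.

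Lysosomal genes, with which macrophages digest engulfed material, had 12 of 24 higher and 1 lower (median 0.28), led by the proton pump subunit Atp6v0d2 (1.75 ± 0.33), the tetraspanin Cd63 (1.43 ± 0.18) and cathepsin S, Ctss (1.22 ± 0.13). None of 21 T and NK cell markers was called against wild type with all arrays (median 0.08), and the count was 1 without NEMO knockout array 1 or 2 as well as with the 6 arrays alone or array weights. Of 11 B and plasma cell markers none was called (median -0.016). Cd3e was at -0.0094 ± 0.10 and Cd79a at 0.045 ± 0.16. Mean levels of the T and NK list lay at 5.68 in wild type and from 5.65 to 5.82 in the labelled double knockout. Neutrophil markers had 2 of 16 higher and 1 lower, where 6.81% of all genes were called higher and 4.19% lower. The granule proteins S100a8 (0.088 ± 0.23) and S100a9 (0.02 ± 0.095) were not called. The higher count was 1 without any 1 of the 3 wild type arrays or any 1 of the 3 labelled double knockout arrays as well as with median centring, quantile normalization or the control probe sets kept, and 4 without NEMO knockout array 3. Lcn2, which hepatocytes also secrete, was higher by 2.24 ± 0.37, and Csf3r, the receptor for the neutrophil growth factor, by 0.36 ± 0.09. The Csf3r call was lost without any 1 of the 3 wild type arrays or any 1 of the 3 labelled double knockout arrays (highest limma adjusted p = 0.11).

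Among 31 chemokines and receptors 7 rose and 3 fell (median 0.30), where 6.81% of all genes were called higher and 4.19% lower. Cxcl14 rose by 1.55 ± 0.30 and Ccl3, a macrophage chemoattractant, by 1.39 ± 0.26, while Cxcl13 fell from 7.44, 7.67 and 8.04 to 5.53, 6.46 and 6.53 (-1.55 ± 0.26, limma adjusted p = 0.00589). The monocyte attractant Ccl2 was at 0.44 ± 0.14 and was not called. The count of falls was 1 without wild type array 1 or 2 or labelled double knockout array 3. Of 20 genes induced by NF-κB 3 rose and 3 fell (median 0.07). Vcam1 rose most (2.80 ± 0.23), followed by the receptor antagonist Il1rn (1.05 ± 0.15). The acute phase protein Saa3 fell by 0.96 on the log2 scale. Tnf itself was at 0.20 ± 0.095 (limma adjusted p = 0.264). In the NF-κB pathway Map3k14, the kinase of its noncanonical branch, rose by 0.62 ± 0.08, while the kinase Ikbkb (-0.039 ± 0.07) and the subunit Rela (-0.095 ± 0.07) were not called. The second of 2 calls among the 18 measured genes of that list, Tnfaip3 at 0.41 ± 0.11, was lost in many fits. The Tnfaip3 call was lost without any 1 of the 3 wild type arrays, any 1 of the 3 NEMO knockout arrays or labelled double knockout array 1 or 3 (highest limma adjusted p = 0.162).

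Single interferon-stimulated genes and the class II genes of antigen presentation were higher, where 6.81% of all genes were called higher. Of 26 interferon-stimulated genes 7 rose (median 0.16), and the count was 4 without labelled double knockout array 1 as well as with median centring or the control probe sets kept, 11 with cyclic loess, 3 without wild type array 2 or 3 or labelled double knockout array 2, and 2 without labelled double knockout array 3. Oasl2, an oligoadenylate synthetase-like protein, rose by 0.66 ± 0.12, and Ifit1 (-0.40 ± 0.25) and Ifit3 (0.20 ± 0.23) were not called. Oasl1 (0.66 ± 0.17), Ifit2 (0.60 ± 0.14) and Gbp3 (0.59 ± 0.13) were called higher with all arrays. The Oasl1 call was lost without wild type array 2 or 3, NEMO knockout array 3 or any 1 of the 3 labelled double knockout arrays (highest limma adjusted p = 0.111). The Ifit2 call was lost without wild type array 3 or labelled double knockout array 2 or 3 (highest limma adjusted p = 0.0848). The Gbp3 call was lost without any 1 of the 3 wild type arrays or labelled double knockout array 2 or 3 (highest limma adjusted p = 0.0962). Of 14 antigen presentation genes 4 rose, all of class II: H2-Aa by 0.97 ± 0.18, H2-Eb1 by 0.83 ± 0.19, the invariant chain Cd74 by 0.72 ± 0.17 and H2-DMa by 0.70 ± 0.12. That count was 2 without wild type array 2 or labelled double knockout array 2 or 3. The H2-Eb1 call was lost without wild type array 2 or 3 or labelled double knockout array 2 or 3 (highest limma adjusted p = 0.0895). The Cd74 call was lost without wild type array 1 or 2 or labelled double knockout array 2 or 3 (highest limma adjusted p = 0.0965). The class I genes B2m (0.025 ± 0.06) and Tap1 (0.13 ± 0.14) were not called.

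Genes of cell death were higher in part, where 6.81% of all genes were called higher. Of 24 ligands and receptors of the TNF superfamily 5 rose, Eda2r most, then the TRAIL receptor Tnfrsf10b (1.05 ± 0.15) and the death receptor Tnfrsf21 (1.01 ± 0.11). The count was 3 without wild type array 1 or 2 or any 1 of the 3 labelled double knockout arrays as well as with median centring. In the apoptosis and necroptosis list 7 of 25 rose: Mlkl, which pierces the membrane in necroptosis, read 6.41, 6.50 and 6.41 in wild type and 7.05, 7.68 and 7.51 in the labelled double knockout (0.98 ± 0.14, limma adjusted p = 0.00256). The apoptosome protein Apaf1 rose by 0.70 ± 0.12 and the BH3 protein Bcl2l11 by 0.63 ± 0.12. That count was 3 without wild type array 2 or 3 or labelled double knockout array 3 as well as with median centring or the control probe sets kept, and 4 without labelled double knockout array 2. Immediate early genes had 4 of 14 higher, with Atf3 at 1.34 ± 0.17, Klf6 at 1.29 ± 0.11 and Egr2 at 1.03 ± 0.15, while Fos was at 0.31 ± 0.15 and not called. In the IL-6 family the oncostatin M receptor Osmr rose by 0.92 ± 0.18 and the LIF receptor Lifr fell by 0.68 on the log2 scale.

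Growth factor genes went both ways, with 5 of 26 higher and 4 lower (median 0.16). Of all genes, 6.81% were called higher and 4.19% lower. Hgf, the hepatocyte mitogen made by stellate cells, rose by 0.88 ± 0.095, while its receptor Met, on hepatocytes, was called lower from 9.47, 9.60 and 9.54 to 9.17, 9.29 and 8.996 (-0.39 ± 0.099, limma adjusted p = 0.0393). The EGF family ligand Nrg1 rose by 1.47 ± 0.18 and the receptor kinase Axl by 1.003 ± 0.074. The count of rises was 3 without wild type array 2 or 3 or labelled double knockout array 3 as well as with the 6 arrays alone or the control probe sets kept, and that of falls 2 without wild type array 1 or 3 or labelled double knockout array 1 or 3. The Met call was lost without any 1 of the 3 wild type arrays, NEMO knockout array 1 or labelled double knockout array 1 or 3 (highest limma adjusted p = 0.139). In the TGF-β pathway, the main profibrotic signal, the ligand Tgfb1 rose by 0.60 ± 0.10, its receptor Tgfbr2 by 1.05 ± 0.084 and its target Tgfbi by 0.74 ± 0.076. They are 3 of the 5 of 18 genes called higher, a count that was 3 without wild type array 1 or labelled double knockout array 2 or 3.

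Fetal and tumour-associated genes had 10 of 21 called higher and none lower (median 0.64). After Akr1c18 came the desaturase Scd2 (2.41 ± 0.38), Lcn2 (2.24 ± 0.37) and Igf2bp3, a fetal RNA-binding protein, which read 5.46, 6.47 and 5.71 in wild type and 7.20, 8.22 and 7.70 in the labelled double knockout (1.83 ± 0.32, limma adjusted p = 0.00724). Alpha-fetoprotein, Afp, was at 0.29 ± 0.13 and Ly6d, a small surface protein, at 1.98 ± 0.64 (limma adjusted p = 0.0997), neither called. Without labelled double knockout replicate 2, 1 gene of the list was called lower. Bile duct and ductular markers had 5 of 17 higher (median 0.24), and 3 without wild type array 1 or 3 as well as with the filter on dim probe sets, and 2 without wild type array 2. The stem cell marker Prom1 rose by 1.01 ± 0.14 and the RNA-binding protein Bicc1 by 0.99 ± 0.18. Epcam was higher by 0.68 ± 0.17 and Cd24a by 1.26 ± 0.28. The Epcam call was lost without any 1 of the 3 wild type arrays or any 1 of the 3 NEMO knockout arrays (highest limma adjusted p = 0.13). The Cd24a call was lost without any 1 of the 3 wild type arrays or labelled double knockout array 3 (highest limma adjusted p = 0.0738). The keratins that define bile ducts, Krt7 (0.15 ± 0.14) and Krt19 (0.23 ± 0.11), were not called.

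Both metallothioneins stood out among stress and plasma protein genes. Mt1 read 8.71, 9.10 and 8.69 in wild type and 11.12, 11.18 and 11.22 in the labelled double knockout, 5.07-fold higher (2.34 ± 0.15, limma adjusted p = 9.84e-05), beside the 10-fold increase of Mt2. The rest of the 24 metallothionein and acute phase genes went both ways, 5 higher and 4 lower in all (median 0.025, which fell below 0 with median centring), and the lower count was 1 without wild type array 1 or 3 or labelled double knockout array 2, and 2 without labelled double knockout array 3. Serum amyloid A, Saa1, was at 0.059 ± 0.29, not called. In the antioxidant NRF2 list 6 of 18 rose, Gstm3, a glutathione transferase, by 0.97 ± 0.17, and the count was 2 without wild type array 3. Complement and coagulation factors, which hepatocytes secrete, had 3 of 30 higher and 7 lower (median -0.14), where 6.81% of all genes were called higher and 4.19% lower. Factor VII, F7, stood at -0.70 ± 0.096 and the mannose-binding lectin Mbl1 at -0.69 ± 0.11, both called lower. The lower count was 4 without wild type array 3 or labelled double knockout array 2 as well as with the 6 arrays alone or a replicate block, and 3 without wild type array 1 or labelled double knockout array 3. The higher count was 1 without wild type array 1 or 2 or any 1 of the 3 labelled double knockout arrays as well as with median centring or the control probe sets kept.

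Many bile acid synthesis genes fell, and the first enzyme of the main pathway was not called. Of 20 listed genes of bile acid synthesis, conjugation and their control 9 fell and none rose (median -0.32), where 4.19% of all genes were called lower. Cyp7b1, which hydroxylates oxysterols in the alternative pathway, read 11.55, 11.76 and 12.01 in wild type and 10.26, 9.92 and 9.66 in the labelled double knockout (-1.83 ± 0.33, limma adjusted p = 0.00763). Hsd3b7, which oxidises the sterol ring, was at -0.66 ± 0.10 and Fgfr4, the receptor that represses synthesis, at -0.45 ± 0.078, both called lower. Cyp7a1, the rate-limiting enzyme, was at 0.77 ± 0.28 and did not pass (limma adjusted p = 0.14). The count of falls was 5 without wild type array 1 or 3 or labelled double knockout array 3, and that of rises 1 without wild type array 2 or labelled double knockout array 2 as well as with a replicate block or array weights. Transporters of bile acids and organic ions had 5 of 23 higher and 4 lower. Slco1a1, an uptake carrier, fell from 11.74, 11.45 and 11.87 to 10.35, 9.92 and 9.68 (-1.71 ± 0.17, limma adjusted p = 0.000402), and the bile salt export pump Abcb11 was lower at -0.49 ± 0.067. The uptake carrier Slc10a1 was at -0.22 ± 0.069, not called. Of the transporter counts, the higher one was 1 without wild type array 1, 3 without wild type array 2 or 3 or labelled double knockout array 2 or 3, and 2 without labelled double knockout array 1, and the lower one 2 without wild type array 1 or labelled double knockout array 1 or 2.

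Drug-metabolising enzymes changed in single members. Of 30 cytochromes P450 and flavin monooxygenases 3 rose and 4 fell (median -0.075), where 6.81% of all genes were called higher and 4.19% lower. The monooxygenase Fmo2 was at 1.68 ± 0.19, and Cyp2c37 (-1.39 ± 0.22) and Cyp2u1 (-1.10 ± 0.15) were lower. The rises numbered 1 without wild type array 3 or labelled double knockout array 1 or 3 as well as with the 6 arrays alone, and 5 with the filter on dim probe sets. The falls numbered 8 with median centring or array weights, and 7 with the filter on dim probe sets. Cyp2b9, a female-biased enzyme, was at 2.99 ± 0.87 and did not pass (limma adjusted p = 0.0657); its arrays read 9.74, 8.06 and 5.67 in wild type and 10.97, 10.59 and 10.90 in the labelled double knockout. Of 23 conjugating enzymes 2 rose, a share near the 6.81% of all genes, and 4 fell. Among them were the glucuronosyltransferase Ugt2b37 (1.97 ± 0.34) and the bile acid sulfotransferase Sult2a8 (-1.29 ± 0.18). The counts were 1 without wild type array 1 or 3 as well as with the 6 arrays alone for rises and 2 without wild type array 1 or 3, NEMO knockout array 3 or labelled double knockout array 3 as well as with the 6 arrays alone or the control probe sets kept for falls.

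Many genes typical of male liver fell and many typical of female liver rose, in mice that were all male. Pulses of growth hormone set this programme in male liver through STAT5b. Of 21 male-biased genes 11 fell and none rose (median -0.48), and of 24 female-biased genes 10 rose and none fell (median 0.65). Susd4 read 10.31, 10.19 and 10.35 in wild type and 8.26, 8.82 and 8.41 in the labelled double knockout (-1.79 ± 0.17, limma adjusted p = 0.000402), and Elovl3 read 12.34, 12.86 and 12.57 and 10.06, 9.36 and 10.58. On the female-biased side the organic anion carrier Slc22a27 read 4.19, 4.97 and 4.62 and 6.75, 7.75 and 6.49 (2.40 ± 0.31, limma adjusted p = 0.00165). The neurotrophin receptor Ntrk2 rose by 1.93 ± 0.25. Male-biased Cyp4a12a, an arachidonic acid hydroxylase, was at -0.53 ± 0.16, not called. Several genes stand in other lists too, such as Cyp7b1 and Slco1a1 with bile acids and Atp6v0d2 with the lysosome. In growth hormone signalling itself 2 of 12 genes were called lower, the receptor Ghr (-0.28 ± 0.073) and the binding protein Igfals (-0.74 ± 0.19), and Stat5b was at -0.25 ± 0.078, not called. The Ghr call was lost without any 1 of the 3 wild type arrays, NEMO knockout array 3 or any 1 of the 3 labelled double knockout arrays (highest limma adjusted p = 0.127). The Igfals call was lost without wild type array 1 or 3, NEMO knockout array 1 or 3 or labelled double knockout array 2 or 3 (highest limma adjusted p = 0.121).

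**Figure D3:**
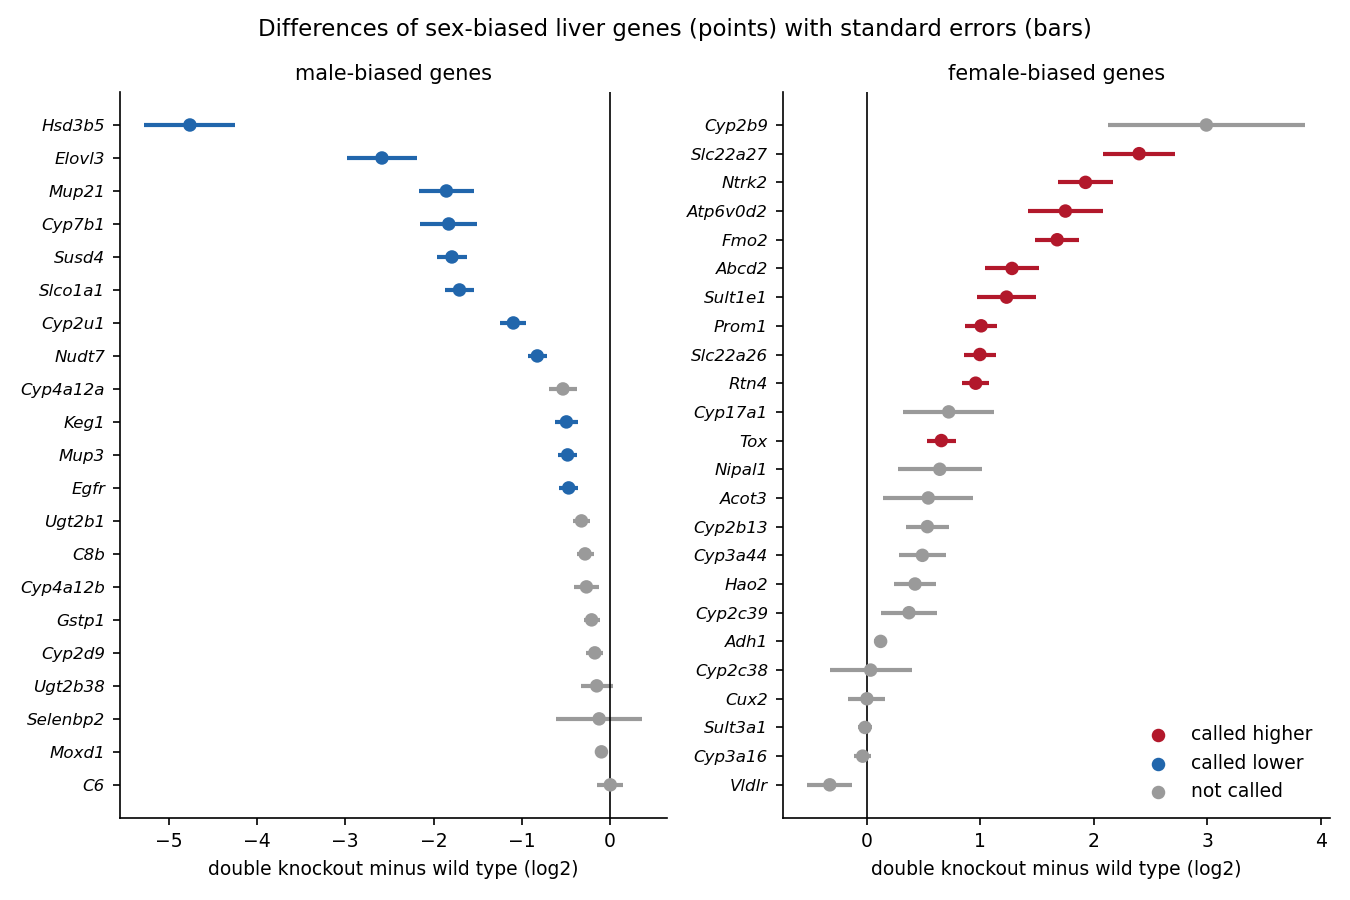
Difference between the labelled double knockout and wild type (log2, x axes) for 21 male-biased and 24 female-biased liver genes, with a point at the fitted difference and a bar of 1 standard error each way, coloured by the call. Called male-biased genes lie left of 0, down to Hsd3b5 at -4.76, and called female-biased genes right of it, up to Slc22a27 at 2.40.

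Genes of fatty acid uptake and storage were higher in part. Of 30 genes of lipid droplets and lipogenesis 5 rose and 1 fell (median 0.15), against 6.81% higher and 4.19% lower of all genes. Cd36, which takes up fatty acids, read 8.08, 8.33 and 8.16 in wild type and 10.59, 10.54 and 10.50 in the labelled double knockout (2.35 ± 0.097, limma adjusted p = 1.38e-05), and the nuclear receptor Pparg rose by 0.88 ± 0.13. The rises numbered 3 without wild type array 2 or 3 or labelled double knockout array 3. Fatty acid oxidation had 2 of 25 called higher, a share near the 6.81% of all genes, led by the thioesterase Acot2 (0.91 ± 0.15), and the carnitine transferase Cpt1a was at 0.15 ± 0.13, not called. The count was 1 without wild type array 1 or 3 or labelled double knockout array 1 or 3 as well as with the 6 arrays alone, a replicate block or the control probe sets kept. In cholesterol synthesis 1 of 20 was called lower, Tm7sf2 (-0.57 ± 0.079), a share near the 4.19% of all genes, with a list median of -0.38. The count was 2 without wild type array 3 as well as with median centring or the filter on dim probe sets, and 5 without labelled double knockout array 2.

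Few core hepatocyte genes were called. Among 25 hepatocyte transcription factors 1 was called higher, Pparg, and 2 lower (median -0.088), where 6.81% of all genes were called higher and 4.19% lower. Hnf4a, which sets hepatocyte identity, was at -0.028 ± 0.091. The higher count was 4 without labelled double knockout array 2. The lower count was 0 without wild type array 1 or labelled double knockout array 3 as well as with the 6 arrays alone, a replicate block or cyclic loess, and 1 without wild type array 3, any 1 of the 3 NEMO knockout arrays or labelled double knockout array 1 as well as with quantile normalization or the control probe sets kept. Of 18 genes typical of the zone near the central vein 2 fell and none rose (median -0.21). The falls numbered 5 with median centring or the filter on dim probe sets. They were 4 with the 6 arrays alone, a replicate block, a robust prior or array weights, and 1 without wild type array 3. Among these genes Glul, glutamine synthetase, read 12.37, 12.24 and 12.42 and 11.71, 11.68 and 11.66 (-0.66 ± 0.067, limma adjusted p = 0.000494). Cyp2e1 was at -0.24 ± 0.071 and not called. Of 30 genes of the urea cycle and amino acid catabolism 4 fell and none rose, including Agxt, which detoxifies glyoxylate (-0.69 ± 0.13), Hal, which degrades histidine (-0.53 ± 0.078), and Haao of the kynurenine pathway (-0.51 ± 0.069). The urea cycle enzyme Cps1 was at 0.16 ± 0.061, not called, and the count of rises was 2 without wild type array 2 as well as with a robust prior. The unfolded protein response had 8 of 26 lower and none higher (median -0.38): the co-chaperone Dnajb9 by -1.04 ± 0.16, the oxidase Ero1b by -0.89 ± 0.13 and the factor Atf4 by -0.49 ± 0.065. That count was 4 without wild type array 1 or labelled double knockout array 3, and 5 without labelled double knockout array 1, and the chaperone Hspa5 was at -0.40 ± 0.14, not called. Clock genes had 4 of 16 higher, Ciart (2.16 ± 0.51) and Bhlhe40 (0.75 ± 0.11) among them, a count that was 2 with the 6 arrays alone, a replicate block or the control probe sets kept, and 1 without wild type array 1 or 3 or labelled double knockout array 1 or 3. The Ciart call was lost without any 1 of the 3 wild type arrays or any 1 of the 3 labelled double knockout arrays (highest limma adjusted p = 0.102). Mean levels of the 21 respiratory chain genes ran from 10.99 to 11.04 in wild type and from 10.95 to 10.98 in the labelled double knockout.

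**Figure D4:**
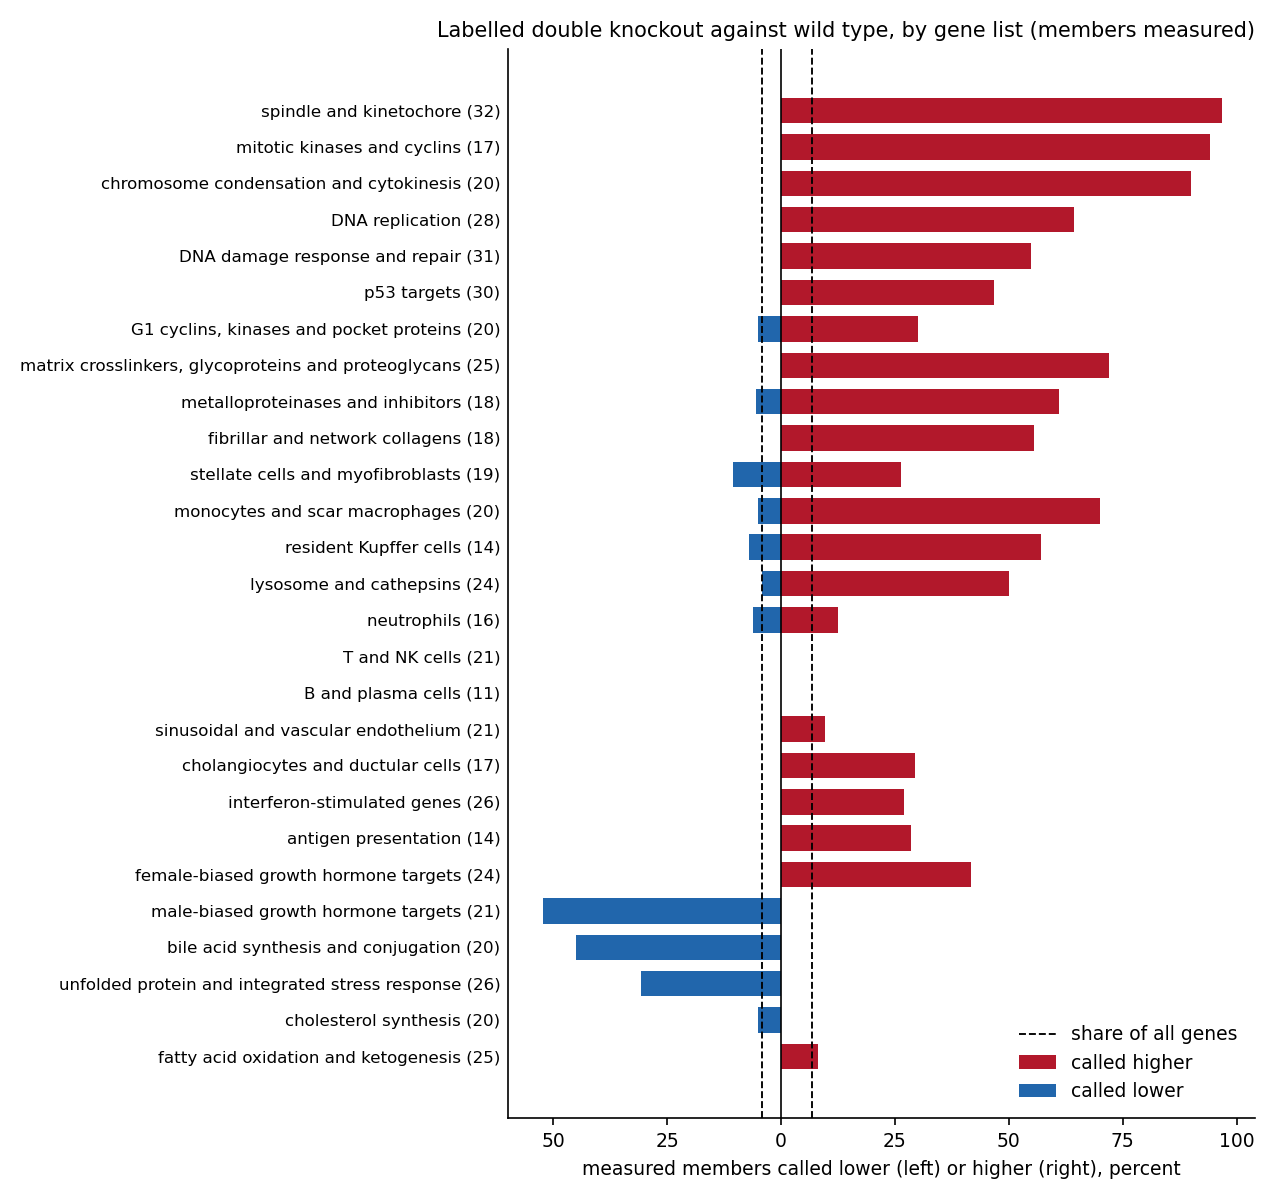
Share of each gene list's measured members (percent, x axis) called higher (right) or lower (left) in the labelled double knockout against wild type, with the number measured in brackets; dashed lines mark the shares over all genes, 6.81% higher and 4.19% lower. Mitosis lists lie farthest to the right, T, NK and B cell markers have no call, and male-biased and bile acid genes have the longest bars to the left.

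The NEMO knockout shows how far these differences lay from wild type with p21 kept, although both comparisons use the same wild type arrays. Against wild type it had 2222 probe sets called (7.68%), 1638 higher (5.66%) and 584 lower (2.02%), and with 1 probe set per gene 6.78% were called higher and 2.5% lower. Mitotic kinases and cyclins had 9 of 17 called higher there (median 0.73), against 16 in the labelled double knockout (median 1.56). For spindle and kinetochore the counts were 19 and 31 of 32 (medians 0.69 and 1.39), for DNA replication 4 and 18 of 28 (0.24 and 0.57), and for DNA repair 2 and 17 of 31 (0.16 and 0.43). In some lists outside the cell cycle the counts were nearer: 11 and 10 of 18 collagens, 14 and 14 of 20 scar macrophage markers, and 10 and 11 of 21 male-biased genes lower. Interferon-stimulated genes had 12 and 7 of 26 called higher and antigen presentation 9 and 4 of 14. These list counts were not tested against each other.

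Set directly against the NEMO knockout, the labelled double knockout differed in few single genes by the test, and most calls were lost when 1 array was left out. This comparison called 57 probe sets (0.197%), 25 higher (0.0864%) and 32 lower (0.111%), or 0.0853% and 0.0702% of genes. Leaving out single arrays gave 10 to 44 calls, and the fewest came without labelled double knockout array 3. Of 33 called probe sets with 1 symbol, 6 kept the call without each array in turn: Postn, Abca3 and Acp1 on the higher side and Clca3a1, Akap6 and Rab2b on the lower. Postn, a matrix protein of fibroblasts, read 7.55, 7.85 and 7.58 in wild type, 7.90, 7.96 and 7.87 in the NEMO knockout and 8.98, 8.82 and 9.05 in the labelled double knockout (1.04 ± 0.094, limma adjusted p = 0.00564). Its labelled double knockout arrays stood above all others, and the NEMO knockout was not called against wild type (limma adjusted p = 0.168). The lipid transporter Abca3 differed by 0.98 ± 0.088 and the phosphatase Acp1 by 1.11 ± 0.088. For Acp1 that holds for 1 of its 5 probe sets, and 3 of the other 4 were called lower against wild type.

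Among cell cycle genes, Rrm2 read 6.64, 6.27 and 6.51 in wild type, 7.05, 7.997 and 7.70 in the NEMO knockout and 8.93, 9.40 and 9.37 in the labelled double knockout, and the knockouts differed by 1.65 ± 0.23 (limma adjusted p = 0.0348). Prc1, which bundles microtubules at the site of division, read 5.66, 5.23 and 5.07, 5.99, 6.28 and 6.22 and 7.13, 7.41 and 7.43 (1.16 ± 0.15, limma adjusted p = 0.0348). For both genes no array of 1 group overlapped those of another. The Rrm2 call between the knockouts was lost without any 1 of the 3 wild type arrays, NEMO knockout array 1 or 3 or any 1 of the 3 labelled double knockout arrays (highest limma adjusted p = 0.161). The Prc1 call was lost without wild type array 2 or 3, any 1 of the 3 NEMO knockout arrays or any 1 of the 3 labelled double knockout arrays (highest limma adjusted p = 0.161). Of the 3 mitosis lists 2 genes were called between the knockouts, Prc1 and Cep55, a protein of the abscission bridge (0.51 ± 0.068). The Cep55 call was lost without wild type array 2 or 3, any 1 of the 3 NEMO knockout arrays or any 1 of the 3 labelled double knockout arrays (highest limma adjusted p = 0.163). As lists, the cell cycle genes stood higher in the labelled double knockout: its mean lay above that of the NEMO knockout for 17 of 17 mitotic kinases and cyclins (median difference 0.80), 32 of 32 spindle and kinetochore genes (0.61), 19 of 20 condensation and cytokinesis genes (0.70) and 28 of 28 replication genes (0.32). Over all 19938 genes that share was 48.7% and the median -0.0033. Other lists stood lower in the labelled double knockout. Its mean lay above that of the NEMO knockout for 1 of 26 interferon-stimulated genes (median difference -0.38) and 0 of 14 antigen presentation genes (-0.44). For T and NK cell markers it did so for 3 of 21 (-0.15). The mean level of the mitotic kinases ran from 6.77 to 7.14 in the NEMO knockout and from 7.49 to 7.65 in the labelled double knockout, and that of the replication genes from 6.81 to 6.90 and from 7.04 to 7.35. Arrays of the knockouts did not overlap in the mean level of any of the 4 cell cycle lists, and no test was made of the lists. The histone gene H2ac4 (1.14 ± 0.15), the organic anion carrier Slc22a26 (0.96 ± 0.14) and Tmem260 (0.89 ± 0.10) were also higher with all arrays. H2ac4 was dim, at 2.89, 2.99 and 2.98 in wild type, 3.28, 3.20 and 3.40 in the NEMO knockout and 4.08, 4.78 and 4.44 in the labelled double knockout. All of these lie well below the array medians. The H2ac4 call was lost without wild type array 2 or 3, any 1 of the 3 NEMO knockout arrays or labelled double knockout array 3, and the Tmem260 call without NEMO knockout array 2 or 3 or labelled double knockout array 2 or 3. The Slc22a26 call was lost without any 1 of the 3 wild type arrays, NEMO knockout array 1 or 3 or any 1 of the 3 labelled double knockout arrays.

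Lower in the labelled double knockout than in both other groups were Clca3a1, a secreted protein of the chloride channel regulator family, and its neighbour in sequence Clca3a2 (-2.72 ± 0.13 and -1.40 ± 0.15 against the NEMO knockout), which can share signal. Clca3a1 read 5.82, 6.23 and 6.23 in wild type, 6.83, 7.09 and 7.02 in the NEMO knockout and 4.11, 4.21 and 4.46 in the labelled double knockout. The antimicrobial peptide Defb1 read 6.65, 6.78 and 6.29, 7.20, 6.94 and 7.22 and 5.53, 5.84 and 5.80. Both Clca3a1 and Defb1 thus lay above wild type in the NEMO knockout and below it in the labelled double knockout. Akap6, an anchor of protein kinase A, differed between the knockouts by -0.94 ± 0.081, and the small GTPase Rab2b by -0.84 ± 0.08. Colec11 read close to wild type in the NEMO knockout (9.71, 9.61 and 9.95) and differed by -1.08 ± 0.11 (limma adjusted p = 0.0108). The call between the knockouts was lost for Colec11 without labelled double knockout array 3, for Defb1 without NEMO knockout array 3 and for Clca3a2 without NEMO knockout array 2 or labelled double knockout array 3. Tedc2 (-1.10 ± 0.16) lost its call without any 1 of the 3 wild type arrays, any 1 of the 3 NEMO knockout arrays or labelled double knockout array 1 or 3. The syntrophin Sntg2 (-0.83 ± 0.12) lost its own without wild type array 1 or 3, any 1 of the 3 NEMO knockout arrays or any 1 of the 3 labelled double knockout arrays. The Akap6 call against wild type was lost without any 1 of the 3 wild type arrays (highest limma adjusted p = 0.0698). Some genes called between the knockouts have close probe set identifiers on the array. Examples are Colec11 with Sntg2 and Acp1, Akap6 with G2e3, Abca3 with Rps2, and Rab2b with Cebpe. Acp1, Akap6, Abca3 and Rab2b are among the 6 that kept the call without each array in turn. Positions of these genes in the genome were not compared, and the cause of the differences between the knockouts was not tested.

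**Figure D5:**
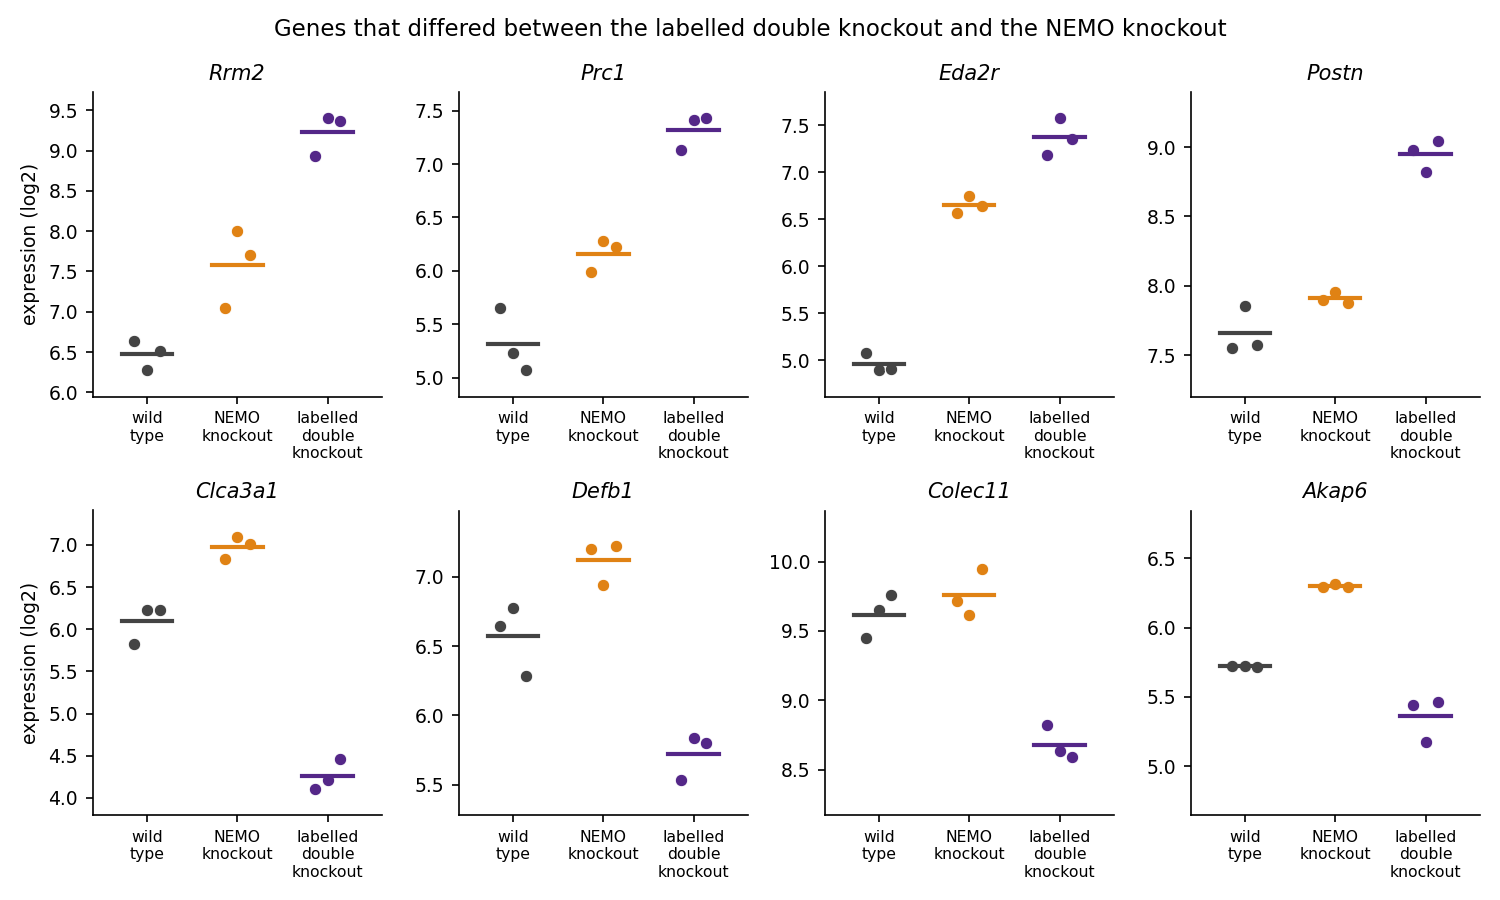
Expression (log2, y axes) of 8 genes called between the labelled double knockout and the NEMO knockout, with a point per array and a line at the group mean; each panel has its own axis. Rrm2, Prc1 and Eda2r rise from wild type through the NEMO knockout to the labelled double knockout, Postn and Colec11 stand apart mainly in the labelled double knockout, and Clca3a1, Defb1 and Akap6 lie on opposite sides of wild type in the 2 knockouts; the Eda2r call was lost without any 1 of the 9 arrays.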

How the data were processed

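The authors deposited a table of log2 values of gene expression. Its unit follows from RMA, the only method that the submitters' processing notes name and one that corrects background, brings arrays to a common distribution and summarises probes, so a general shift of all RNA is not visible. Versions and the build are not given in the sources used. Of 35556 probe sets, 6617 (18.6%), all with identifiers below the first annotated one, were taken as controls and left out. Of the other 28939, 21789 have 1 gene symbol, 1621 several and 5529 none, and 21698 of the 21789 matched the RefSeq gene table (GRCm38.p6), used for names. Genes were named from single-symbol probe sets, except Cdkn1a. Where a gene has several, lists use the one with the highest mean. Of the calls against wild type, 15 rest on probe sets with 1 value repeated over a group.

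Differences were fitted with limma 3.58.1 (R 4.3.3; lmFit and eBayes) on the 9 arrays together, 1 mean for each group, with Benjamini-Hochberg adjustment over 28939 probe sets, called at an adjusted p under 0.05, and the script was tested on simulated data. Errors are standard errors with 3 arrays per group, a number that limits the precision. The 65 lists hold 1293 genes, of which 1183 were measured. Members and lists were chosen with earlier results of these data known. Named genes are the targeted pair, the 15 largest changes each way among called single-symbol probe sets whose groups did not overlap (without predicted genes, small RNAs, and olfactory or vomeronasal receptors), from every list at most 4 called genes, taken by size of change, up to 8 each way called against both other groups, and the first 3 genes of a list where not called. E2f4, Fabp5, Hhip, Met, Cep55, B2m, Rela and Tap1 were chosen after their values were seen. Alternatives were the 6 arrays alone, a replicate block, 3 scalings (median centring, quantile and cyclic loess), a filter on dim probe sets, the controls kept in, a robust prior with trend, array weights and leaving out each array.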

Additional observations from a re-analysis of the deposited data

Results flagged for a closer look

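Against wild type, 3 genes were called higher in the NEMO knockout and lower in the labelled double knockout, with no overlap between the arrays of the groups. For each of the 3, the difference between the knockouts also passed limma's test. That difference was -2.72 on the log2 scale for Clca3a1 (adjusted p = 0.000137), -1.40 for Defb1 (adjusted p = 0.00851) and -0.94 for Akap6 (adjusted p = 0.00564). The Defb1 call was lost without NEMO knockout array 3, and those of Clca3a1 and Akap6 held without each array in turn.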

How the results depend on the processing

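Against wild type, the count of lower calls in the labelled double knockout was 1661 instead of 1016 with median centring, and the NEMO knockout had 1169 with median centring and 885 with quantile normalization instead of 584. Higher calls of the labelled double knockout made up 44.1% with median centring, 56.4% with quantile normalization and 69.5% with cyclic loess. With 1 array left out at a time, the labelled double knockout had 1601 to 2720 calls (1080 to 1696 higher, 521 to 1024 lower), the NEMO knockout 1382 to 2335 (1081 to 1644 higher, 301 to 691 lower), and the comparison of the knockouts 10 to 44 (5 to 36 higher, 5 to 14 lower). Of its 33 called probe sets with 1 symbol, 6 kept the call in each of those fits and 27 lost it in at least 1. The comparison of the knockouts gave 31 calls with median centring (14 lower), 28 with the control probe sets kept (10 lower) and 40 higher calls with array weights. The cause was not tested. The replicate numbers are not known to pair animals. Between the labelled double knockout and wild type, deviations of same-numbered arrays from their group means correlated at 0.095, -0.12 and -0.036. Differently numbered arrays gave -0.17 to 0.18, and NEMO knockout arrays were not examined in this way. With a replicate block the labelled double knockout had 2775 calls against wild type instead of 2696, and the comparison of the knockouts 18 (9 higher, 9 lower) instead of 57. Of 208 named genes called against wild type, 153 kept the call in every alternative that tested them, 55 lost it without at least 1 array, 40 under at least 1 other setting, and 0 changed direction. List medians near 0, such as those of the endothelial, neutrophil and acute phase lists, changed sign with the scaling.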
